A study of Homo sapiens with 4 samples.

Results

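Genes of the enzymes that cut the extracellular matrix, and of the inhibitors that hold those enzymes in check, were examined by RNA-seq in Daoy, a cell line that comes from a human medulloblastoma, a tumour of the cerebellum. The genes were taken by symbol, as every MMP, ADAMTS or TIMP gene with a number and with a protein-coding transcript in the files. There were 46 of them among 58174 genes: 23 matrix metalloproteinases (MMPs), 19 ADAMTS proteases and 4 tissue inhibitors of metalloproteinases (TIMPs). MMP23A matched by symbol but had no coding transcript and was not a member. The study set 2 libraries of Daoy cells labelled EED-knockout against 2 libraries of wild type Daoy cells, with no treatment in the labels. EED belongs to the core of Polycomb repressive complex 2, the enzyme complex that trimethylates lysine 27 of histone H3, a mark of silenced genes. The sources used here do not give the site of the EED lesion, nor whether libraries of 1 genotype are separate cultures or clones. The p-values therefore cover only the spread among these 4 libraries, and that spread may be technical. In bulk RNA, fewer cells that express a gene and less of its RNA per cell cannot be told apart.

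MMPs are zinc endopeptidases made as inactive precursors and switched on when their propeptide is removed. Most are secreted, while the membrane-type MMPs sit on the cell surface, and TIMPs block the active enzymes by binding their catalytic site. The best described activation circuit joins 3 of the genes below: on the cell surface MMP14 (MT1-MMP) binds TIMP2, this pair captures the precursor of MMP2, and a free MMP14 molecule then cuts it. ADAMTS proteases are secreted relatives with thrombospondin repeats, of which some cleave the large proteoglycans aggrecan, versican and brevican, some trim fibrillar procollagens, and ADAMTS13 cuts von Willebrand factor. In brain and brain tumours these enzymes act on a matrix rich in such proteoglycans.

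The libraries held 17836112 to 19106382 estimated counts. EED had 340 and 490 counts in the knockout libraries and 626 and 500 counts in the wild type libraries, with a log2 fold change of -0.49 (edgeR quasi-likelihood test, adjusted p = 0.878), so its messenger remained measurable under both labels. A lesion that leaves the messenger is not checked by this value. Pearson's r of log2 CPM (counts scaled to library size) was taken over 18349 tested genes. It was 0.953 for the knockout pair and 0.975 for the wild type pair. Between genotypes it was 0.964 and 0.971 for knockout 2 with wild type 1 and wild type 2. For knockout 1 it was 0.947 and 0.963 with wild type 1 and wild type 2. Each knockout library was thus closer to wild type 2 than to the other knockout library. Of 8 neural stem and medulloblastoma markers 7 were detected, with ATOH1 at 0 in all 4 libraries. Of 8 blood and immune markers, CD68 made up 36.6 and 27.3 TPM of summed levels of 39.2 and 29.2 TPM in the knockout libraries, and 19.02 and 48.4 TPM of 19.9 and 49.8 TPM in the wild type libraries, and the T cell marker CD3E was at 0 (TPM is an abundance per transcript length, scaled to a fixed total in every library). Endothelial markers summed to 38.3 TPM in knockout 1, mostly KDR, and to 0.952 to 6.92 TPM in the other 3 libraries. Epithelial markers summed to 648 and 627 TPM in the knockout libraries and to 505 and 741 TPM in the wild type libraries, mostly KRT18. Of the neural stem and medulloblastoma markers, VIM stood at 3091 to 3432 TPM and the others at 0 to 50.3 TPM.

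In level, a few genes made up most of the matrix protease messenger. MMP14 and MMP2 held 94.7% and 90.8% of the summed MMP TPM in knockout 1 and knockout 2, and 94.9% in each wild type library. TIMP1 and TIMP2 held 90.6% and 97.5% of the summed TIMP TPM in the knockout libraries, and 94.3% and 94.0% in the wild type libraries. The 19 ADAMTS genes summed to 83.1 and 102.9 TPM in the knockout libraries, against 92.6 and 94.2 TPM in the wild type libraries, so this total differed less between genotypes than between the knockout libraries. The 23 MMP genes summed to 886 and 464 TPM in knockout 1 and knockout 2, against 671 and 833 TPM in wild type 1 and wild type 2. The 4 TIMP genes summed to 396 and 430 TPM in the knockout libraries, against 316 and 386 TPM in the wild type libraries. The ratio of the TIMP sum to the MMP sum was 0.447 and 0.927 in the knockout pair, against 0.470 and 0.463 in the wild type pair, so the ratio stood apart in knockout 2 and not in knockout 1.

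**Figure D1:**
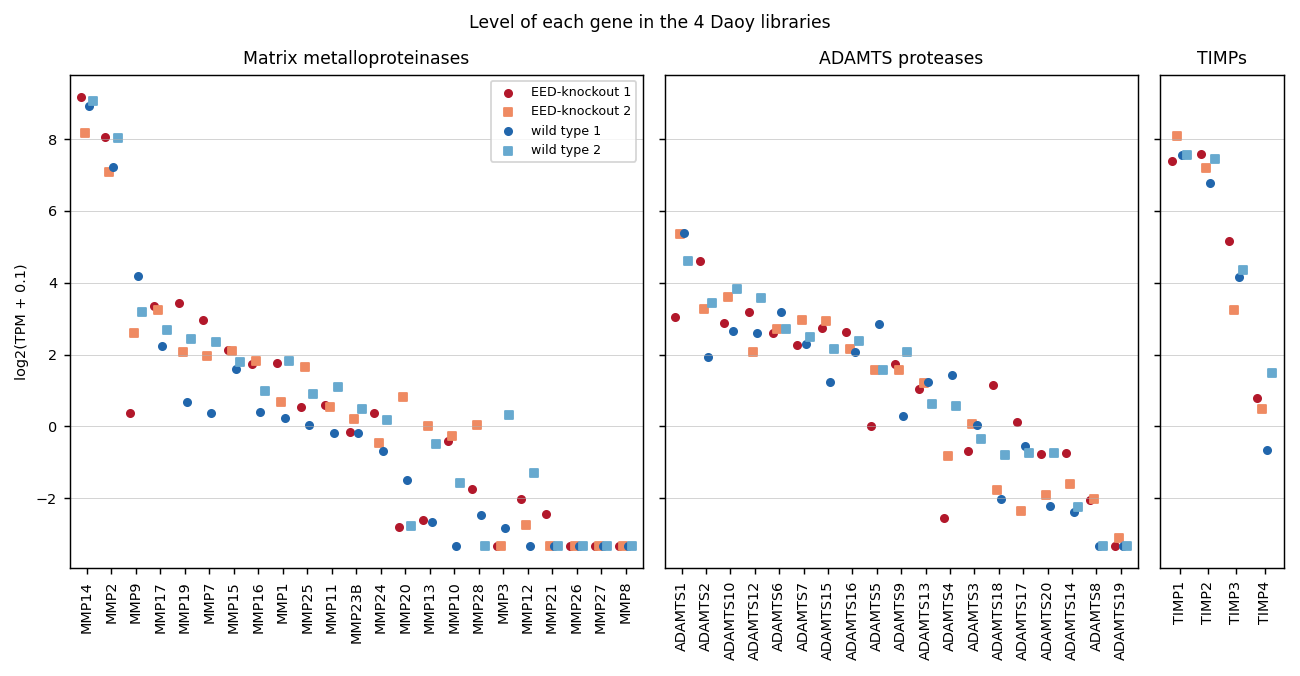
Level of each of the 46 genes, as log2(TPM + 0.1) on the vertical axis, in the 2 EED-knockout libraries (red circle, orange square) and the 2 wild type libraries (blue circle, light blue square), ordered by mean level within each family. MMP14, MMP2, TIMP1 and TIMP2 lie far above the other genes, and MMP26, MMP27 and MMP8 lie at the bottom edge, with 0 in every library.

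MMP14 (ENSG00000157227; GRCh38 chromosome 14, 22836557 to 22849027, plus strand) was the most abundant member. Its level was 1089 CPM in knockout 1 and 581 CPM in knockout 2, against 1110 and 1125 CPM in wild type 1 and wild type 2. Knockout 2 was low and the other 3 libraries lay within a narrow band. The log2 fold change was -0.42 (95% interval -1.15 to 0.30) and did not pass the test (edgeR adjusted p = 0.895); it was -0.94 without knockout 1 and -0.040 without knockout 2. In TPM the genotypes overlapped, with 576 and 286 TPM in the knockout libraries and 488 and 530 TPM in the wild type libraries. The main coding transcript, MMP14-001, stood at 376 and 197 TPM in the knockout libraries and 356 and 392 TPM in the wild type libraries. A short transcript with a retained intron, MMP14-005, stood at 161 and 65.0 TPM in the knockout libraries and 103 and 94.5 TPM in the wild type libraries.

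MMP2 (chromosome 16, 55389700 to 55506691), the gelatinase that MMP14 activates, was measured at 570 and 299 CPM in knockout 1 and knockout 2, against 355 and 582 CPM in wild type 1 and wild type 2. TIMP2 (chromosome 17, 78852977 to 78925387), the inhibitor that also serves as the bridge in that activation, was measured at 473 and 375 CPM in the knockout libraries, against 286 and 442 CPM in the wild type libraries. Both genes were higher in knockout 1 than in knockout 2 and higher in wild type 2 than in wild type 1, and for both the genotypes overlapped. The log2 fold changes were -0.11 (95% interval -0.96 to 0.75) for MMP2 and 0.22 (95% interval -0.40 to 0.84) for TIMP2, with edgeR adjusted p of 0.985 and 0.942. The TPM ratio of TIMP2 to MMP14 was 0.332 and 0.516 in the knockout libraries, against 0.223 and 0.328 in the wild type libraries. For TIMP2 the transcript TIMP2-008 took 1048 counts in knockout 1 and 0 in knockout 2, and 2081 counts in wild type 1 and 0 in wild type 2. TIMP2-001 took 7721 and 6955 counts in the knockout libraries, against 2729 and 7920 counts in the wild type libraries. These isoforms share most of their sequence, so the division between them is an estimate.

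The other inhibitors differed between libraries without a common direction. TIMP1 (X chromosome, 47582313 to 47586789), which inhibits many MMPs and has growth factor activity, was measured at 67.04 and 108 CPM in the knockout libraries, against 81.1 and 83.6 CPM in the wild type libraries. TIMP3 (chromosome 22, 32801701 to 32863043), which is bound to the matrix and also inhibits ADAM and ADAMTS proteases, was measured at 112 CPM in knockout 1 and 29.1 CPM in knockout 2, against 61.2 and 64.5 CPM in wild type 1 and wild type 2. For both genes the knockout libraries lay on either side of the wild type libraries, and for TIMP3 they were 1.92 apart on the log2 scale, against 0.08 between the wild type libraries. TIMP4 had 32 and 25 counts in the knockout libraries and 11 and 51 counts in the wild type libraries. None of the 4 TIMPs passed the test, with log2 fold changes from -0.18 to 0.22 and a smallest edgeR adjusted p of 0.942. Without knockout 1 the log2 fold change of TIMP3 was -1.11, and without knockout 2 it was 0.83. TIMP1, TIMP3 and TIMP4 each lie inside a synapsin gene on the opposite strand (SYN1, SYN3 and SYN2). The synapsin genes had at most 80 counts in any library.

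**Figure D2:**
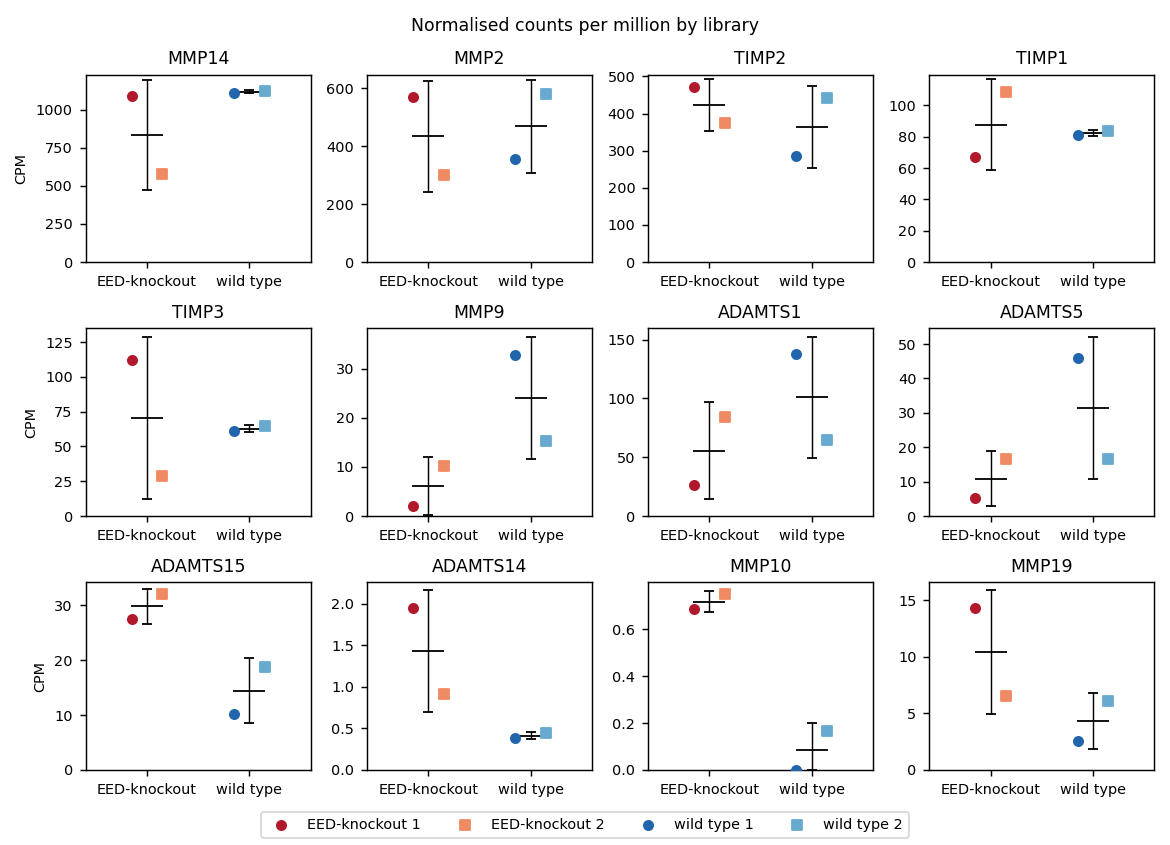
Normalised counts as CPM (vertical axis, from 0) of 12 genes in each library, with EED-knockout on the left and wild type on the right of every panel. Horizontal bars are group means and error bars are the SD over 2 libraries, with the lower bar ending at 0 where it would pass it. ADAMTS15, ADAMTS14, MMP10 and MMP19 lie higher in both knockout libraries, MMP19 by a small margin. MMP9, ADAMTS5 and MMP14 lie lower in both, ADAMTS5 and MMP14 by a small margin. The knockout values of TIMP1 and TIMP3 straddle the wild type values.

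Among the other MMPs the largest difference in the lower direction was that of MMP9 (ENSG00000100985; chromosome 20, 46008908 to 46016561), the second gelatinase. It had 38 and 192 counts in the knockout libraries and 596 and 275 counts in the wild type libraries, or 2.00 and 10.3 CPM against 32.8 and 15.2 CPM, with means of 6.13 ± 5.84 and 24.0 ± 12.4 CPM (SD, n = 2 each). Both knockout libraries were below both wild type libraries, with knockout 1 lowest and wild type 1 highest. The log2 fold change was -1.97 ± 0.71 (SE; 95% interval -3.65 to -0.28), at an unadjusted p of 0.0280 that did not pass over all genes (edgeR adjusted p = 0.808), and the unadjusted DESeq2 p was 0.0833. It was -1.22 without knockout 1, -3.58 without knockout 2 and -1.31 without wild type 1. MMP9 is also a product of white blood cells. Their pan-leukocyte marker PTPRC had 10 and 1 counts in the knockout libraries and 0 and 8 counts in the wild type libraries, too few to be tested. CD68, of the same marker list, stood at 36.6 and 27.3 TPM in the knockout libraries and 19.02 and 48.4 TPM in the wild type libraries. The part of such cells in the MMP9 difference was not tested. In TPM MMP9 stood at 1.20 and 6.01 in the knockout libraries and 18.2 and 8.96 in the wild type libraries. It overlaps SLC12A5-AS1 on the opposite strand, which had at most 8 counts in any library. The 90 tested neighbours within 5 Mb of MMP9 had a median log2 fold change of 0.04.

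Of the 5 other membrane-type MMPs, 3 were higher in both knockout libraries than in both wild type libraries, a pattern that 17.8% of all tested genes showed, and 2 overlapped; none passed the test. MMP17 (MT4-MMP) was measured at 10.9 and 9.03 CPM in the knockout libraries, against 5.28 and 7.41 CPM in the wild type libraries. MMP15 (MT2-MMP) was measured at 14.0 and 13.9 CPM in the knockout libraries, against 10.2 and 11.1 CPM in the wild type libraries. MMP16 (MT3-MMP) was measured at 10.9 and 15.98 CPM in the knockout libraries, against 10.02 and 7.69 CPM in the wild type libraries. The log2 fold changes of these 3 genes were 0.65, 0.38 and 0.60, with edgeR adjusted p of 0.865, 0.887 and 0.870. MMP24 (MT5-MMP) and MMP25 (MT6-MMP) overlapped between genotypes, with log2 fold changes of 0.17 and 0.38. Over 10% of the sequence words of both genes, taken as stretches of 31 bases, also occur in transcripts of other genes, so their counts are less certain.

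A cluster of secreted MMP genes lies on chromosome 11 between 102520508 and 102955734 (GRCh38), in the order MMP7, MMP20, MMP27, MMP8, MMP10, MMP1, MMP3, MMP12 and MMP13. Of these genes MMP7 and MMP1 were low, with mean levels over all libraries of 4.39 and 2.33 TPM. The others were hardly expressed. MMP7, the matrilysin, had 85 and 41 counts in the knockout libraries and 14 and 54 counts in the wild type libraries. MMP1, the interstitial collagenase, had 74 and 33 counts in the knockout libraries and 26 and 74 counts in the wild type libraries. Both were higher in knockout 1 and wild type 2 than in the other 2 libraries, and both genotypes overlapped. MMP13, another collagenase, had 2 and 27 counts in the knockout libraries and 1 and 10 counts in the wild type libraries, so its log2 fold change of 1.33 (95% interval -1.72 to 4.38) rested on knockout 2. MMP10, or stromelysin 2, had 13 and 14 counts in the knockout libraries and 0 and 3 counts in the wild type libraries. Summed over libraries this was a ratio of 8.94 (95% exact counting interval 2.75 to 46.1), and edgeR gave a log2 fold change of 3.01 at an unadjusted p of 0.0269 (adjusted p = 0.808). MMP10 shares 7.12% of its 31-base words with its neighbour MMP3, stromelysin 1, which had 0 counts in both knockout libraries and 1 and 4 counts in the wild type libraries. MMP12 had 3 and 1 counts in the knockout libraries and 0 and 6 counts in the wild type libraries, and MMP20 had 1 and 9 against 5 and 1 counts. MMP8 and MMP27 had 0 counts throughout, so a level of up to 0.158 and 0.165 CPM in the knockout libraries and 0.157 and 0.168 CPM in the wild type libraries is still possible. All these limits and intervals cover counting error only.

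Promoters of the cluster are shown because AP-1 sites near the start are a known feature of inducible MMP genes. Promoter sequence (RefSeq, GRCh38.p14; 250 bases before to 50 bases after the annotated start) was at hand for 27 of the 46 genes. The cluster genes MMP1, MMP3, MMP12 and MMP13 were not among these 27. For the binding motif of AP-1, the FOS and JUN dimer, the loose pattern TGANTCA was searched, which reads the same on both strands. With any base at N, this pattern takes in the TGAATCA of MMP10 as well as the TGAGTCA of MMP7. It was present in 3 of the 5 cluster promoters (MMP7, MMP10 and MMP20), in 1 of 23 promoters of other members (ADAMTS12; ADAMTS10 has a pair of starts), and in 7.71% of all 35116 promoters. The promoters of MMP10 (chr11:102780579-102780878, minus strand) and MMP7 (chr11:102530698-102530997, minus strand) are shown with the motif in capitals, which begins in both 67 bases before the annotated start:
MMP10: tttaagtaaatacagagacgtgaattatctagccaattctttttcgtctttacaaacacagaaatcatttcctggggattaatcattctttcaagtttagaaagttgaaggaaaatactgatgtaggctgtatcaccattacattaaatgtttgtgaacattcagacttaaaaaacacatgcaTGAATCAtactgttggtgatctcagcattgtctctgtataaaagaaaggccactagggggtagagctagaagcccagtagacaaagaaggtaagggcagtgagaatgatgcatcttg
MMP7: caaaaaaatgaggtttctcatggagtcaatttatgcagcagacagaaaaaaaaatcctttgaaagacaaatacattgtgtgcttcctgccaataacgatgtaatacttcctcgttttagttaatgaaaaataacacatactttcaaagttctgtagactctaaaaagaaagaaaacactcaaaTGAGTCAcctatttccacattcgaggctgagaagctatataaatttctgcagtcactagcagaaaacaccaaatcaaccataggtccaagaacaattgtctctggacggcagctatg
CpG dinucleotides, which are dense at most promoters that Polycomb complexes occupy in mammalian cells, numbered 2 to 4 in the cluster promoters, against a median of 26 in the other member promoters and 14 in all promoters. Of the tested members higher in both knockout libraries, ADAMTS14 had 42, MMP15 39 and MMP10 2. Promoters of ADAMTS15, MMP16, MMP17 and MMP19, also higher in both, were not at hand. Among members that overlapped between genotypes, ADAMTS2 had 47, and ADAMTS10 had 43 and 15 at its pair of starts. The part of CpG content in the differences was not tested. Shown with CpG in capitals are ADAMTS14 (chr10:70672256-70672555, plus strand) and MMP14 (chr14:22836335-22836634, plus strand), the most abundant member, which had 10:
ADAMTS14: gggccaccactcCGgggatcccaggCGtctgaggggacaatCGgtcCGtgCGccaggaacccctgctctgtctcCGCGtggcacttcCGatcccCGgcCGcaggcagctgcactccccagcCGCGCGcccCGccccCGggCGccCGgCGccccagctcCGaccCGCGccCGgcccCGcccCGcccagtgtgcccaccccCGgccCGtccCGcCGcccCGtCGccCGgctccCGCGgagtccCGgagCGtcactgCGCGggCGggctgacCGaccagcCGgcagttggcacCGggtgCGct
MMP14: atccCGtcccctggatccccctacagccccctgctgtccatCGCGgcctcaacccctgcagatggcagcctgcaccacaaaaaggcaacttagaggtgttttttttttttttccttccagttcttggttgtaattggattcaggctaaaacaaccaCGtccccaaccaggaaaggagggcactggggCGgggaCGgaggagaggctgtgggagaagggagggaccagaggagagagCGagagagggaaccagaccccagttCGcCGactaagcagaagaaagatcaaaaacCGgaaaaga
A motif match is a description of these letters, and binding or chromatin marks at these promoters were not measured here.

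The remaining MMPs were low. MMP19, a secreted MMP outside the cluster (chromosome 12, 55835433 to 55842966), was measured at 14.3 and 6.57 CPM in the knockout libraries, against 2.59 and 6.08 CPM in the wild type libraries. Knockout 2 and wild type 2 were close, so the log2 fold change of 1.26 (95% interval -0.0018 to 2.53; edgeR adjusted p = 0.847) came from knockout 1 and wild type 1; it was 0.60 without knockout 1, 0.78 without wild type 1 and 2.00 without wild type 2. In TPM the MMP19 genotypes overlapped, at 10.8 and 4.09 in the knockout libraries and 1.49 and 5.31 in the wild type libraries. It shares 15.8% of its 31-base words with TMEM198B on the opposite strand, which had 236 to 333 counts. MMP11, or stromelysin 3, had 35 and 30 counts in the knockout libraries and 23 and 34 counts in the wild type libraries. MMP28 (epilysin) had 5 counts in each knockout library and 1 and 0 counts in the wild type libraries. MMP23B, which shares 40.9% of its 31-base words with other genes, nearly all with MMP23A, had 4 and 5 against 4 and 12 counts, MMP21 had 2 and 0 against 0 and 0 counts, and MMP26 had 0 in all 4 libraries.

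Of the ADAMTS proteases the clearest separation was that of ADAMTS15 (ENSG00000166106; chromosome 11, 130448974 to 130476641, plus strand), a proteoglycan-cleaving enzyme. It had 524 and 600 counts in the knockout libraries and 187 and 338 counts in the wild type libraries, or 27.6 and 32.1 CPM against 10.3 and 18.7 CPM, with means of 29.8 ± 3.16 and 14.5 ± 5.94 CPM (SD, n = 2 each). Both knockout libraries were above both wild type libraries, and they differed from each other by less than the wild type libraries did. The log2 fold change was 1.04 ± 0.32 (SE; 95% interval 0.28 to 1.80), with the smallest unadjusted p among the members, 0.0140, and an edgeR adjusted p of 0.799 (DESeq2 adjusted p = 0.315). In TPM the values were 6.55 and 7.47 in the knockout libraries and 2.24 and 4.39 in the wild type libraries. Its log2 fold change ranged from 0.68 without wild type 1 to 1.52 without wild type 2. Next to it on the opposite strand lies ADAMTS8 (chromosome 11, 130404925 to 130428993), a related protease, which had 8 counts in each knockout library and 0 counts in both wild type libraries. Against a floor of 3 counts per wild type library it was at least 2.65-fold higher in knockout, a gene too low for the test. The 49 tested neighbours within 5 Mb of ADAMTS15 had a median log2 fold change of -0.01.

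ADAMTS1 and ADAMTS5, proteoglycan-cleaving enzymes that are neighbours on chromosome 21 (26835747 to 26845409 and 26917912 to 26966513), were on the lower side. ADAMTS1 was measured at 26.2 and 84.5 CPM in the knockout libraries, against 138 and 64.4 CPM in the wild type libraries, so the genotypes overlapped (log2 fold change -0.87, edgeR adjusted p = 0.887, and -1.95 to -0.22 with 1 library left out). ADAMTS5 was measured at 5.27 and 16.5 CPM in the knockout libraries, against 46.0 and 16.7 CPM in the wild type libraries, and knockout 2 lay just under wild type 2. Its log2 fold change was -1.53 ± 0.62 (SE) at an unadjusted p of 0.0442 (edgeR adjusted p = 0.834), and over the alternatives it ranged from -2.58 without knockout 2 to -0.62 without wild type 1. Both genes were lowest in knockout 1 and highest in wild type 1. The region around ADAMTS1 was lower in knockout too. There, 24 of 31 tested neighbours within 5 Mb were lower, against 9003 of all 18349 tested genes, with a median log2 fold change of -0.62. These neighbours were lowest in knockout 2, with median deviations of -0.14 and -0.43 in knockout 1 and knockout 2, against 0.34 and 0.14 in wild type 1 and wild type 2 (log2 scale, from the mean of the 4 libraries). The part of this region in the difference was not tested.

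ADAMTS4, an aggrecanase, had 9 and 54 counts in the knockout libraries and 61 and 86 counts in the wild type libraries, and its log2 fold change was -1.27 (95% interval -3.06 to 0.52; edgeR adjusted p = 0.881). Both knockout libraries were below both wild type libraries, with knockout 1 lowest. The value was -0.49 without knockout 1, -3.08 without knockout 2, -2.99 with length-scaled TPM counts and -2.68 with limma on log2(TPM + 0.1). ADAMTS9, which cleaves versican, had 286 and 211 counts in the knockout libraries and 96 and 273 counts in the wild type libraries, and ADAMTS20 had 26 and 11 against 8 and 23 counts. For both genes wild type 1 was lowest and the genotypes overlapped.

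The procollagen N-proteinases comprise ADAMTS2, ADAMTS3 and ADAMTS14, which remove the amino-terminal propeptide of fibrillar collagens. ADAMTS2 (chromosome 5, 179110851 to 179345430) was measured at 53.1 and 20.9 CPM in the knockout libraries, against 9.30 and 22.6 CPM in the wild type libraries, so its log2 fold change of 1.22 (95% interval -0.05 to 2.48; edgeR adjusted p = 0.851) stood beside overlapping genotypes. It was 0.40 without knockout 1, 0.72 without wild type 1 and 1.98 without wild type 2. ADAMTS14 (chromosome 10, 70672803 to 70762441) had 37 and 17 counts in the knockout libraries and 7 and 8 counts in the wild type libraries. Both knockout libraries were higher, with a log2 fold change of 1.77 ± 0.65 (SE) at an unadjusted p of 0.0301 (edgeR adjusted p = 0.808), and it was 1.12 without knockout 1. ADAMTS3 had 27 and 69 against 79 and 51 counts, with overlap. ADAMTS2 and ADAMTS14 lay above 0 and ADAMTS3 below.

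The other ADAMTS genes overlapped between genotypes. ADAMTS7 and ADAMTS12, which cleave cartilage oligomeric matrix protein, had log2 fold changes of 0.14 and -0.13. ADAMTS7 was measured at 15.3 and 22.02 CPM in the knockout libraries, against 16.5 and 17.5 CPM in the wild type libraries, and shares 26.6% of its 31-base words with other genes, chiefly ADAMTS7P1, which had 0 counts in all libraries. ADAMTS12 was measured at 38.1 and 14.8 CPM in the knockout libraries, against 24.9 and 32.9 CPM in the wild type libraries. ADAMTS6 and ADAMTS10, relatives tied to fibrillin microfibrils, had log2 fold changes of -0.37 each. ADAMTS6 was measured at 11.3 and 15.98 CPM in the knockout libraries, against 22.3 and 12.9 CPM in the wild type libraries. In its region of chromosome 5, 43 of 48 tested neighbours were lower in knockout, against 9003 of all 18349 tested genes. The neighbours' median deviations were -0.47 and -0.036 in knockout 1 and knockout 2, against 0.45 and 0.14 in wild type 1 and wild type 2. The part of this region was not tested. ADAMTS10 was measured at 6.48 and 9.89 CPM in the knockout libraries, against 7.65 and 13.5 CPM in the wild type libraries. ADAMTS13, the von Willebrand factor protease, had 63 and 86 against 71 and 78 counts, and ADAMTS16 had 288 and 240 against 208 and 245 counts. ADAMTS17 and ADAMTS18 were higher in knockout 1 than in the other 3 libraries, with 40 and 36 counts there, against 3 and 3 in knockout 2, 13 and 12 in wild type 1 and 27 and 16 in wild type 2. ADAMTS19 had 1 count, in knockout 2.

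Over the whole group, 35 of the 46 genes passed the filter on low counts and were tested, 14 MMPs, 17 ADAMTS genes and 4 TIMPs; of the other 11, 3 had 0 counts in all 4 libraries. EdgeR called 0 of the 35 at an adjusted p under 0.05, where it called 0% of all 18349 genes, and DESeq2 also called 0 of the 35, against 0.371% of all genes. Before adjustment, 3 members higher in knockout (ADAMTS15, MMP10 and ADAMTS14; 2.85% of all genes) and 2 lower (MMP9 and ADAMTS5; 3.05% of all genes) had an edgeR p under 0.05, together 14.3% of the members against 5.9% of all genes. By DESeq2 4 members had an unadjusted p under 0.05 (5.62% of all genes), namely ADAMTS15 and ADAMTS5 together with ADAMTS2 and MMP19, while MMP9, MMP10 and ADAMTS14 had unadjusted DESeq2 p of 0.0833, 0.0733 and 0.0779. Both knockout libraries were above both wild type libraries in 7 of the 35 (20.0%, against 17.8% of all genes) and below in 4 (11.4%, against 18% of all genes). A log2 fold change of at least 1 was fitted for 6 members (17.1%, against 4.37% of all genes) and of at most -1 for 3 (8.57%, against 2.75%). A value above 0 was fitted for 11 of 14 MMPs, 9 of 17 ADAMTS genes and 3 of 4 TIMPs, and for 50.9% of all genes. The median log2 fold change of the members was 0.16, against 0.01 for all genes. It ranged from -0.09 without wild type 1 to 0.43 without wild type 2, and the count at an unadjusted p under 0.05 was 0 without wild type 1 and 9 without wild type 2. Leaving out a library turned the sign or moved the log2 fold change by over 1.5 times for all 22 members chosen by the rule for named genes.

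**Figure D3:**
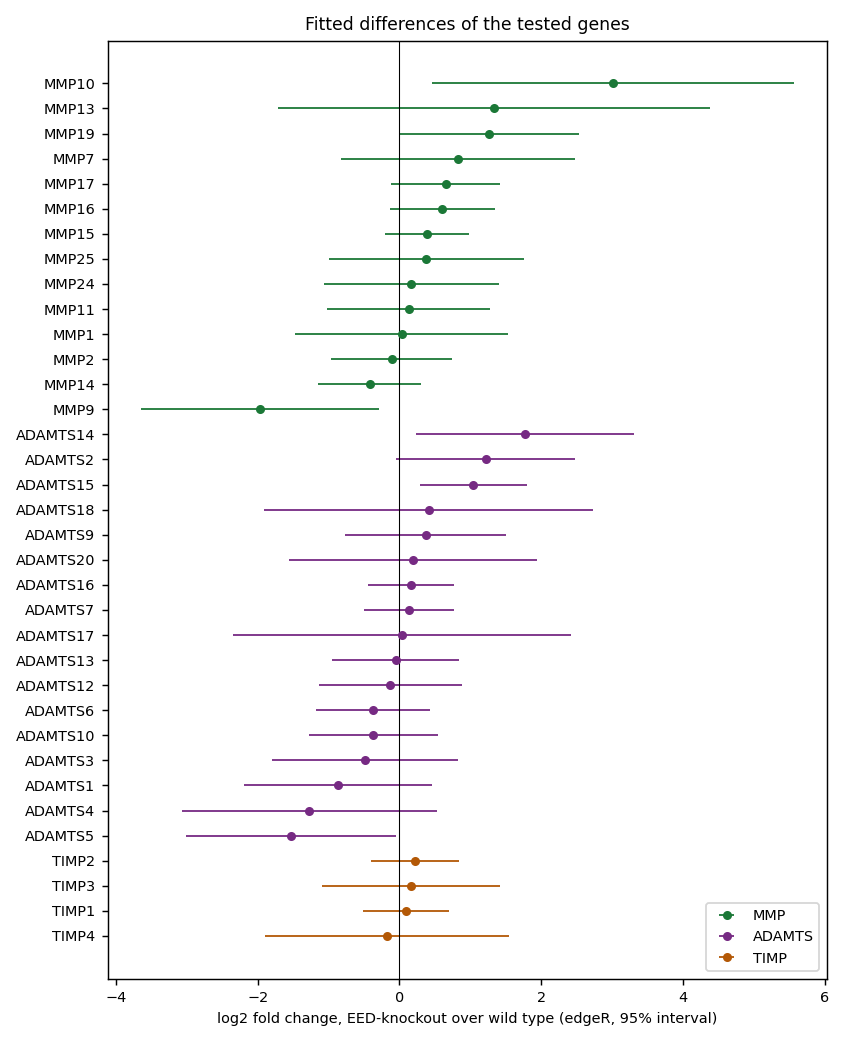
Fitted log2 fold change (horizontal axis, EED-knockout over wild type) of the 35 tested genes, with 95% intervals from edgeR, by family and size. Positive values mean higher in EED-knockout. The intervals of ADAMTS15, MMP10, ADAMTS14, MMP9 and ADAMTS5 lie clear of 0 before adjustment over all genes, and those of all 4 TIMPs cross it.

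Members differed strongly between libraries of the same genotype. The median absolute log2 ratio was 0.80 between the knockout libraries and 0.62 between the wild type libraries, against 0.34 and 0.25 for all genes, while the median absolute log2 fold change between genotypes was 0.38 for members and 0.24 for all genes. Members were also lower in level than the tested genes as a whole, with a median log2 CPM of 3.25 against 3.97. Knockout 1 exceeded knockout 2 in 20 of the 35 tested members (57.1%, against 49.8% of all genes), and wild type 2 exceeded wild type 1 in 29 (82.9%, against 50.1% of all genes). Both held for 20 members (57.1%, against 28.1% of all genes), MMP2, MMP14, MMP7, MMP1, TIMP2, TIMP3 and ADAMTS2 among them. The reverse, knockout 2 over knockout 1 together with wild type 1 over wild type 2, held for 6 members (17.1%, against 28.2% of all genes), among them MMP9, ADAMTS1 and ADAMTS5. The 2 within-genotype log2 ratios correlated across the 35 members with Pearson's r of -0.52, against -0.16 across all tested genes; this describes the 4 libraries, and genes measured in the same libraries are not independent. Summed fibroblast and mesenchyme markers had a like order, at 1286 TPM in knockout 1 and 922 TPM in knockout 2, against 631 TPM in wild type 1 and 1130 TPM in wild type 2. The order was not particular to them. The epithelial, blood and immune, and endothelial sums were also higher in knockout 1 than knockout 2 and in wild type 2 than wild type 1. The neural stem and medulloblastoma sum, which is mostly VIM, was not, at 3553 and 3459 TPM in the knockout libraries and 3378 and 3162 TPM in wild type. Within that list ZIC1 had the order, at 50.3 and 25.3 TPM in knockout and 22.25 and 31.35 TPM in wild type. NES had it too, at 1.83 and 1.28 TPM in knockout and 0.816 and 1.36 TPM in wild type. VIM, SOX2, GLI1, GLI2 and PTCH1 did not have it, and ATOH1 was at 0. All 9 fibroblast and mesenchyme markers were detected and tested, 3 higher and 6 lower in knockout with 0 at an unadjusted p under 0.05. The part of these marker sets in the members' differences was not tested.

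**Figure D4:**
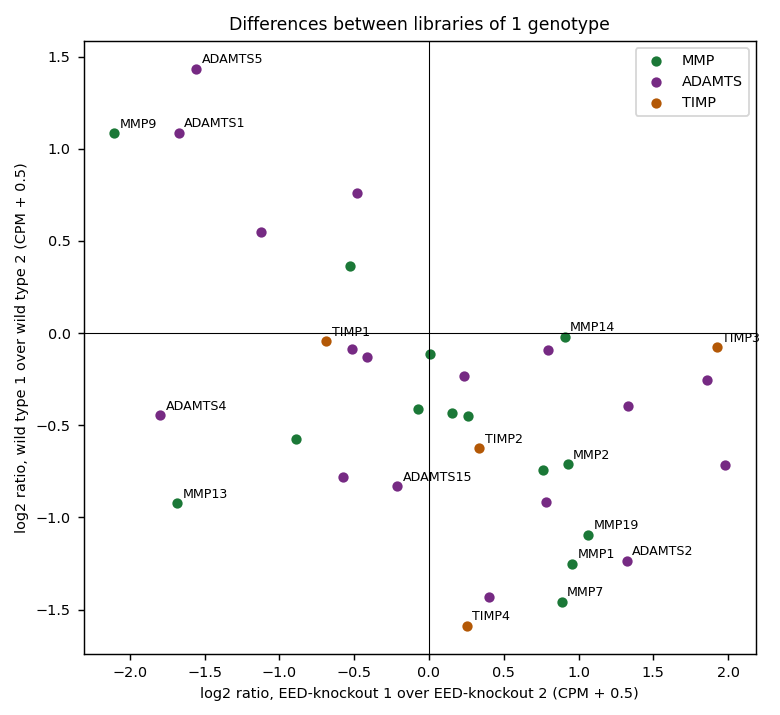
Each point is 1 of the 35 tested genes, placed by the log2 ratio of EED-knockout 1 to EED-knockout 2 (horizontal axis) and of wild type 1 to wild type 2 (vertical axis), both from CPM + 0.5. The lower right part holds 20 genes and the upper left part 6, with MMP9, ADAMTS1 and ADAMTS5 farthest to the upper left.

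Partners of the matrix proteases were read from related lists. In plasminogen activation, the protease system that feeds into MMP activation, 10 of 11 genes were tested, 5 higher and 5 lower (median log2 fold change -0.02, against 0.01 for all genes). PLG, plasminogen itself, had 22 and 17 against 8 and 13 counts, and ANXA2, a plasminogen receptor component and more abundant than any other gene listed there, differed by 0.11 on the log2 scale.

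Among other regulators of MMP activity 9 of 12 were tested, 5 higher and 4 lower (median log2 fold change 0.13), with 1 lower at an unadjusted p under 0.05. SPOCK1, a testican proteoglycan of the matrix, was measured at 166 and 155 CPM in the knockout libraries, against 397 and 302 CPM in the wild type libraries. The groups stood well apart (log2 fold change -1.12 ± 0.21, SE; 95% interval -1.62 to -0.62). DESeq2 called it (adjusted p = 0.0012) and edgeR did not (adjusted p = 0.567). Of its 163 tested neighbours within 5 Mb, 124 were lower in knockout, against 9003 of all 18349 tested genes. The neighbours' median log2 fold change was -0.28, and the part of this region was not tested. TFPI2, a serine protease inhibitor of the matrix, had a log2 fold change of -0.36, and BSG, known as the MMP inducer EMMPRIN and the most abundant of the list, -0.23.

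The other lists held few differences. Of the catalytic ADAM proteases 10 of 13 were tested, 5 higher and 5 lower (median log2 fold change -0.086), with 0 at an unadjusted p under 0.05 by edgeR and 0 called by DESeq2. ADAM10, the most abundant of them and a major sheddase, had a log2 fold change of 0.16, ADAM19 -0.36 and ADAM28 -1.28. ADAM19 stood at -0.14 without knockout 1 and -0.61 without knockout 2. ADAM28 stood at -0.48 without knockout 1, -3.22 without knockout 2, -0.85 without wild type 1, -3.05 with length-scaled TPM counts and -2.92 with limma on log2(TPM + 0.1). Of the ADAMTS-like proteins, which lack the protease domain, 6 of 7 were tested, 3 higher and 3 lower (median log2 fold change -0.0038). Among them 1, ADAMTSL1, was higher at an unadjusted p under 0.05 (0.0171 by edgeR, 0.0027 by DESeq2), and DESeq2 called 0 after adjustment. ADAMTSL1 was measured at 21.5 and 31.6 CPM in the knockout libraries, against 5.83 and 14.6 CPM in the wild type libraries, with a log2 fold change of 1.38 ± 0.44 (SE; edgeR adjusted p = 0.799), which was 0.86 without wild type 1 and 2.18 without wild type 2. ADAMTSL4 had a log2 fold change of -0.37 and THSD4 -0.10, a value that was 0.54 with length-scaled TPM counts.

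Of the matrix substrates of ADAMTS proteases 7 of 11 were tested, 3 higher and 4 lower (median log2 fold change -0.24), with 0 at an unadjusted p under 0.05 by edgeR and 0 called by DESeq2. BCAN, the brain proteoglycan brevican, had 49 and 77 against 106 and 111 counts (log2 fold change -0.84, edgeR adjusted p = 0.855). BGN, the small proteoglycan biglycan, had a log2 fold change of 0.82 and FBN1, fibrillin 1, -0.24. Of other matrix-degrading enzymes and cystatins 13 of 16 were tested, 8 higher and 5 lower (median log2 fold change 0.01), with 1 lower at an unadjusted p under 0.05. CTSS, the elastin-cleaving cathepsin S, was measured at 81.4 and 47.3 CPM in the knockout libraries, against 168 and 98.6 CPM in the wild type libraries (log2 fold change -1.05 ± 0.34, SE; edgeR adjusted p = 0.799), and the value was -0.62 without wild type 1. FAP, a cell-surface serine protease that is also among the fibroblast markers, had a log2 fold change of -0.99 and CTSB, cathepsin B, -0.38. All 14 transcription factors of MMP promoters were tested, 6 higher and 8 lower (median log2 fold change -0.054), with 0 at an unadjusted p under 0.05 by edgeR and 0 called by DESeq2. RELA had a log2 fold change of 0.31, FOSB -0.78 and FOSL1, the most abundant AP-1 subunit of the list, 0.04. RELA, a subunit of NF-kappaB, was higher in each knockout library than in either wild type library, while FOSB and FOSL1 overlapped.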

How the data were processed

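Per the labels' protocols, total RNA was taken up in TRIZOL, cleaned on RNeasy and sequenced as Illumina RNA-seq libraries. The authors deposited, for each library, 1 row per transcript with estimated counts, made with kallisto 0.43.1 on hg38 per the submitters' processing notes. Beside them the authors deposited TPM, per the file headers, which corrects for effective length. The sources used here name neither the settings, nor the GENCODE release, nor whether the kit keeps strand, so reads of a gene and of an antisense partner cannot be told apart.

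Estimated counts were summed per gene over 199324 transcripts and rounded. Genotypes were compared in R 4.3.3 by edgeR 4.0.16, using its quasi-likelihood F test (TMM factors, filterByExpr with minimum count 10 and minimum total 15, no covariate), fitted to all 18349 genes that passed, with Benjamini-Hochberg adjustment and a threshold of 0.05, two-sided. Intervals are 95% intervals of that fit. Alternatives were DESeq2 1.42.0, limma 3.58.1 on log2(TPM + 1) and log2(TPM + 0.1), other size factors and filters, length-scaled TPM counts, a replicate block and leaving out each library. The edgeR code was also run on simulated counts drawn with the spread of the fit itself, which does not test the spread between these libraries. Library totals of 17836112 to 19106382 counts put the floor of 3 counts at 0.157 to 0.168 CPM. Positions are those of GENCODE 29 (GRCh38), in which all 46 genes were found, and 31-base words were compared across its transcripts on both strands. Protein sequences were not used here.

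The genes described in full were EED, the TIMPs, the 6 MMP and the 6 ADAMTS genes highest in mean TPM, and tested members with an absolute log2 fold change of at least 1 or an unadjusted p under 0.05. Of each related list the genes named were the most abundant and the 2 with the smallest p. Of the plasminogen list 1 such gene is not reported here. Other members are described more briefly; they and the markers fall outside that rule. The members and lists were chosen with earlier results of these data known.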

Additional observations from a re-analysis of the deposited data

How the results depend on the processing

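Of the 14 alternatives, none called a member by edgeR, DESeq2 or limma. Over all genes the count of calls was 0 except with DESeq2 (68), and leaving out 1 library gave 0 to 23, with 23 without knockout 1 and 7 without wild type 2. Members at an unadjusted p under 0.05 numbered 5 in the chosen fit, 3 with limma on log2(TPM + 1) after a filter of TPM at least 1 in 2 libraries, and 0 to 9 with 1 library left out (7 without knockout 1, 8 without knockout 2, 0 without wild type 1, 9 without wild type 2). The members' median log2 fold change of 0.16 spanned -0.091 to 0.43 with 1 library left out and 0.11 to 0.20 otherwise. With replicate number as a block edgeR called 0 genes, found 4 members at an unadjusted p under 0.05 and gave a median of 0.13. Same-numbered libraries deviated oppositely (correlation -0.14 over 18349 genes). With 2 libraries per genotype this cannot decide whether the numbers pair the libraries, and the labels do not say. With the crossed pairing, chosen after seeing the data, 0 genes were called and 8 members had an unadjusted p under 0.05.

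Of 43 named genes, 29 kept their direction in all settings, while 39, all 22 members among them, turned or moved by over 1.5 times with some library left out. Such values ranged from 0.16 to 2.09 for MMP7, 0.48 to 3.65 for MMP13, 0.064 to 1.33 for BGN, -1.78 to -0.48 for FAP and -1.21 to -0.17 for FOSB. With all 4 libraries kept, TIMP3 turned to -0.13 with the replicate block, -0.13 with the crossed block, and -0.039 and -0.057 with limma at pseudocounts 1 and 0.1. TIMP4 turned to 0.13, 0.11, 0.052 and 0.23 in the same settings. THSD4 turned to 0.54 with length-scaled TPM counts and to 0.67 and 0.79 with limma, and ADAMTS10 to 0.0006 with limma at pseudocount 0.1. The limma values with the TPM filter were the same for TIMP3 (-0.039), TIMP4 (0.052) and THSD4 (0.67). With 1 library left out the log2 fold change ranged from -1.11 to 0.83 for TIMP3, -0.90 to 1.30 for TIMP4, -0.30 to 0.40 for TIMP1, -0.058 to 0.56 for TIMP2, -0.64 to 0.28 for MMP2, -0.96 to 0.39 for ADAMTS12, -0.15 to 0.38 for ADAMTS7, -0.72 to 0.078 for ADAMTS6 and -0.72 to 0.087 for ADAMTS10. Among related genes it ranged from -0.033 to 0.25 for ANXA2, -0.14 to 0.40 for ADAM10, -0.48 to 0.27 for THSD4, -0.66 to 0.023 for TFPI2 and -0.21 to 0.33 for FOSL1. The cause of these shifts was not tested. A fit without 1 library assumes that the single library left in that genotype varies like the other genotype. Intervals were wide for members with few counts, such as -1.72 to 4.38 for MMP13, and with many, such as -2.19 to 0.46 for ADAMTS1.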
